A study of Arabidopsis thaliana with 6 samples.

Results

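The mitochondria-encoded genes are the genes that *Arabidopsis thaliana* carries in its mitochondrial genome, and they were taken as every row of the expression file whose gene identifier starts with ATMG. The rule found 122 of the 27372 genes in the file. RNA-sequencing compared whole seedlings of the wild type Col-0 with whole seedlings of *fer-4*, an insertion mutant of the receptor-like kinase gene *FERONIA* (*FER*), with 3 libraries per genotype that the paper calls biological replicates. Both genotypes were grown on MS-agar in long days for 7 days at the light intensity the study calls moderate (154 μmol m-2 s-1, where the labels write mmol) and harvested at zeitgeber time 3, 3 h after lights on. Only this mutant line was sequenced, so the genotype and the line cannot be told apart. *FER* itself was 56.5, 62.6 and 64.6 FPKM in Col-0 and 0.0905, 0.0270 and 0.0438 FPKM in *fer-4*, where FPKM is the number of fragments scaled to the length of the transcript and to the size of the library.

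A plant mitochondrion keeps a small share of the genes it needs. They encode subunits of respiratory complexes I (NADH dehydrogenase, NAD genes), III (cytochrome b, COB), IV (cytochrome c oxidase, COX genes) and V (ATP synthase, ATP genes), factors that mature cytochrome c (CCM genes), some ribosomal proteins (RPL and RPS genes), an intron maturase (MATR), a transport protein (MTTB) and ribosomal RNAs, beside many open reading frames (ORFs) of no assigned function. Most subunits of the same complexes are encoded in the nucleus, and nucleus-encoded RNA-binding proteins splice, edit and stabilise the mitochondrial transcripts. Stable poly(A) tails are not usual on plant mitochondrial mRNAs, and the sources used here do not say whether poly(A) RNA was selected for these libraries.

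Of the 122 members, 38 encode a protein of known role and 84 are other ORFs. No values were listed for the 3 mitochondrial ribosomal RNA genes, so they are not among the members. In all 6 libraries 63 members were listed at 0, among them 13 of the 38 genes of known role and 50 of the 84 ORFs. The 13 were *COB*, *COX3*, *ATP6-1*, *ATP8*, *NAD2A*, *NAD4*, *NAD5B*, *NAD6*, *CCMC*, *CCMFC*, *RPL5*, *RPS4* and *RPS7*. *COB* and *COX3* encode core subunits of complexes III and IV, without which respiration through these complexes cannot run, so a value of 0 is given here only as what the file lists. Another 31 members were above 0 in at least 1 library with a mean under 0.5 FPKM, and 28 reached a mean of 0.5 FPKM and were tested. The mean of the tested members had a median of 1.88 FPKM, against 12.3 FPKM over all 19839 genes tested.

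The genes listed at 0 were compared with the nuclear genome, because chromosome 2 of this accession carries a large insertion of mitochondrial DNA. Between chr2:3239038-3509765 of the RefSeq TAIR10.1 assembly, alignments of at least 1000 bases to the RefSeq Col-0 mitochondrial genome had 99.91% identity, and 73.4% of the 367808 bases of that mitochondrial genome lay in some nuclear alignment. The mitochondrial sequence of the expression file has other gene coordinates than the RefSeq one, so copies were measured on the RefSeq coding sequences of the members of known role, and the ORFs, which RefSeq does not annotate there, were left out. The coding starts of 2 genes listed at 0 and of 3 measured genes are shown, 5′ to 3′, with the first codon in capitals.

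COX3: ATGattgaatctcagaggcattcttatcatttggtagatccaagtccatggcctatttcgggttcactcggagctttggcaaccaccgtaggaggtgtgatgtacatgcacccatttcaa
COB: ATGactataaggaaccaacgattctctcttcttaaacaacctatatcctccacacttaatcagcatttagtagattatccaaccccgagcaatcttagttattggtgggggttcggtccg
NAD9: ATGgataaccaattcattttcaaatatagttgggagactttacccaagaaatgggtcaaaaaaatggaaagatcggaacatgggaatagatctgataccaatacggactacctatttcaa
COX1: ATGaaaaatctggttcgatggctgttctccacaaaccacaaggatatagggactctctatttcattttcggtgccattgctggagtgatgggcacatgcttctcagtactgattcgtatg
ATP4: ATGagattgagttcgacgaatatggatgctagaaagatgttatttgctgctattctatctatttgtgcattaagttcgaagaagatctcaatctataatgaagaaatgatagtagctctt

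The *COX3* stretch lay at 330654 to 330773 of the RefSeq mitochondrial genome on the minus strand, and the same 120 bases stood at chr2:3312532-3312651 on the minus strand with 0 differences. The *COB* stretch (182739 to 182858, minus strand) likewise stood at chr2:3450863-3450982 on the plus strand with 0 differences. The stretches of *NAD9* (24665 to 24784, plus strand), *COX1* (116226 to 116345, minus strand) and *ATP4* (362206 to 362325, plus strand) had no exact copy of any of their 100-base windows in the nuclear chromosomes. A copied gene can also differ a little: the start of *CCMFN1*, which encodes a haem lyase subunit of cytochrome c maturation, is shown from 316013 to 316132 of the mitochondrial genome and from chr2:3297890-3298009, both on the plus strand, with the single differing base of the 1149 coding bases in capitals.

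CCMFN1, mitochondrion: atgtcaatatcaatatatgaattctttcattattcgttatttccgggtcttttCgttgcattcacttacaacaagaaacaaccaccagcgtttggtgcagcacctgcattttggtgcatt
CCMFN1, chromosome 2: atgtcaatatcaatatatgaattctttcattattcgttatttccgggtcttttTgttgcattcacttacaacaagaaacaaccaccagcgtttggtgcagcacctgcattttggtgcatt

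The level of a member went with how much of its coding sequence had an exact nuclear copy. All 7 genes with no exact copy of a 100-base coding window in the nucleus (*NAD5C*, *NAD9*, *NAD4L*, *NAD1B*, *COX1*, *ATP4* and *CCMB*) reached the minimum for testing, with means from 0.957 to 4.58 FPKM. Of the 17 genes in which 100% of the windows had an exact nuclear copy, 11 were listed at 0 in every library, the highest mean was 0.465 FPKM (*ATP9*) and 0 were tested. The 9 genes with 69.6% to 96.2% of windows copied had a median mean of 0.438 FPKM, and 2 of them were tested, *ATP6-2* at 1.23 FPKM and *NAD1C* at 2.55 FPKM. Of the 4 genes with 4.47% to 37.5% of windows copied, *RPS3*, *RPL16* and *COX2* were measured at 1.87, 3.22 and 6.57 FPKM and *ATP6-1* was listed at 0. Counting coding bases in a nuclear alignment, exact or not, the shares were 9.93%, 40.6%, 42.8% and 100% in that order. Of the 7 genes with no exact copy, *NAD1B* and *NAD9* had 30.2% and 14.5% of their coding bases in such an alignment, and the rest had 0%. *NAD5B*, also listed at 0, has a coding part of only 22 bases and holds no window. The nuclear genes annotated over the copies did not carry high values either: AT2G07687, over the copy of *COX3*, had a mean of 0.0514 FPKM and AT2G07727, over that of *COB*, 0.0485 FPKM. Of the 63 nuclear genes listed within the chromosome 2 interval, 35 were at 0 in all 6 libraries and 4 had a mean of at least 0.5 FPKM. Together the 63 summed to 10.7, 9.32 and 9.08 FPKM in Col-0 and 12.8, 10.5 and 15.0 FPKM in *fer-4*. Col-0 replicate 1 lay above *fer-4* replicate 2. The highest was *fer-4* replicate 3, which also had the highest sum of the members. The sources used here do not say how fragments that match several places were counted, and the part of these copies in the values was not tested.

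**Figure D1:**
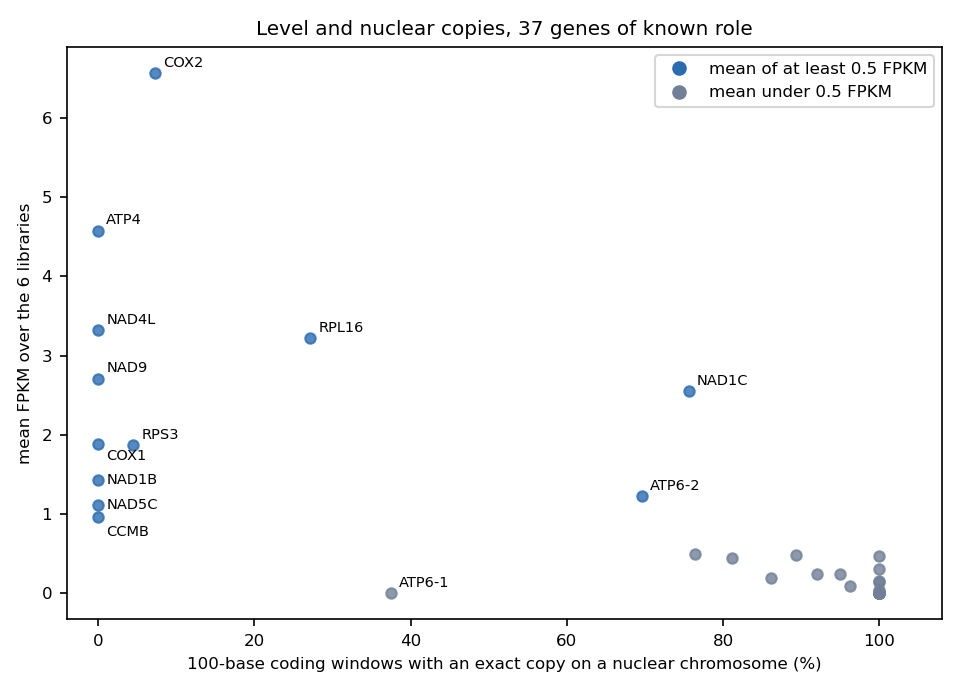
Mean FPKM over the 6 libraries (y axis) against the percentage of 100-base coding windows with an exact copy on a nuclear chromosome (x axis) for the 37 genes of known role that hold a window; each point is a gene. The 7 genes at 0% lie between 0.957 and 4.58 FPKM, and the 17 genes at 100% lie at or under 0.465 FPKM.

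The summed level of all 122 members was higher in every *fer-4* library than in every Col-0 library. It was 69.3, 63.3 and 75.9 FPKM in Col-0 (69.5 ± 6.32, SD, n = 3) and 90.0, 79.5 and 118.5 FPKM in *fer-4* (96.0 ± 20.2, SD, n = 3), and *fer-4* replicate 3 lay furthest from the rest. The ratio of the geometric means was 1.37, with an exact 2-sided permutation p of 0.1, which is the smallest that 3 libraries against 3 allow, so this design cannot reach 0.05. Without *fer-4* replicate 3 the difference of the log2 sums was 0.29 in place of 0.45. All these sums are small, 0.00659% to 0.0124% of the FPKM of a library. In bulk seedlings, fewer cells of a type and less RNA per cell cannot be told apart.

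The genes of known role summed to 24.9, 28.3 and 34.1 FPKM in Col-0 and 36.3, 31.8 and 53.0 FPKM in *fer-4*, and the groups overlapped (exact permutation p = 0.2). The 84 ORFs summed to 44.3, 34.9 and 41.8 FPKM in Col-0 and 53.7, 47.7 and 65.5 FPKM in *fer-4*, and the groups did not overlap (exact permutation p = 0.1). ORF149 alone made up 11.4% to 19.8% of the member sum of a library. Without it the sums overlapped between the groups, and the ratio was 1.35 (exact permutation p = 0.2). By complex, the 14 complex I members summed to 5.61, 9.11 and 11.3 FPKM in Col-0 and 13.7, 11.5 and 19.3 FPKM in *fer-4*, with no overlap by a narrow margin (exact permutation p = 0.1). That sum includes *NAD1C* and *NAD1B*, which were at 0 in some libraries and reached 4.50 and 4.73 FPKM in others. The sums of complexes IV and V, cytochrome c maturation and ribosomal proteins were 1.19, 1.25, 1.39 and 1.23 times those of Col-0, and each overlapped between the groups (exact permutation p from 0.3 to 0.4). The sum of *MATR* and *MTTB* was 0.825 times that of Col-0 and also overlapped (exact permutation p = 0.8).

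**Figure D2:**
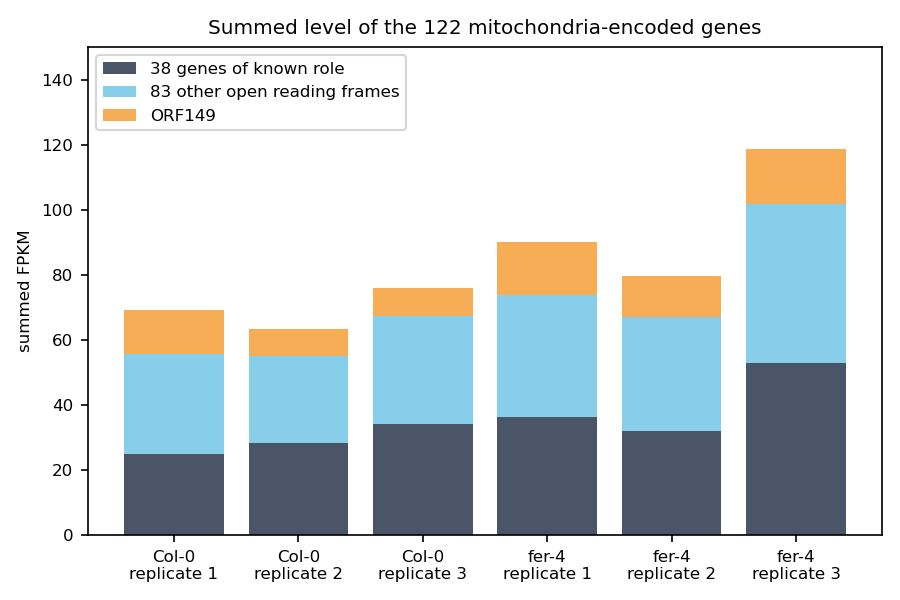
Summed FPKM of the 122 members in each library (y axis), divided into the 38 genes of known role, ORF149 and the other 83 ORFs; each bar is a library. The *fer-4* bars stand at 90.0, 79.5 and 118.5 FPKM, above the Col-0 bars at 69.3, 63.3 and 75.9 FPKM.

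Markers of other tissues and the other organelle also differed between these seedlings. The 13 root markers summed to 227.2 to 240.3 FPKM in Col-0 and 119.8 to 150.7 FPKM in *fer-4*, with 7 of 13 lower and 0 higher at the threshold. The 7 had log2 fold changes from -0.72 (AT2G36100) to -2.48 (ATNRT2.1). The other 6 (SCR, SHR, PHO1, RHD6, WER and RSL4) ranged from -0.30 (PHO1) to 0.14 (SHR) and did not pass. The 8 green tissue markers summed to 49584 to 53994 FPKM in Col-0 and 31453 to 38993 FPKM in *fer-4*, with 5 of 8 lower and 0 higher. Of all genes tested, 16% were lower and 18% higher at the threshold. None of these markers was at 0 in a library. The 88 chloroplast-encoded genes summed to 17377, 18467 and 19722 FPKM in Col-0 and to 18802, 13521 and 10828 FPKM in *fer-4*, where replicate 3, the library with the highest mitochondrial sum, was the lowest. The part of tissue composition in the member values was not tested.

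Gene by gene, limma (adjusted p under 0.05 over all genes tested) called 3 of the 28 tested members higher in *fer-4*, *NAD9*, ORF275 and ORF116, and 0 lower. The shares of all 19839 genes called were 18% higher and 16% lower, so 3 of 28, or 10.7%, was no larger a share than that of genes in general. The 2 sets were not matched by level: the median mean was 1.88 FPKM over the members and 12.3 FPKM over all genes tested. At an unadjusted p under 0.05, 7 members were higher and 0 lower, where 23.1% of all genes tested were higher and 21.3% lower. The log2 fold change (*fer-4* over Col-0, of FPKM + 0.1) was above 0 in 24 of the 28 members and in 49% of all genes tested, and its median was 0.38 over the members and -0.01 over all genes. In 6 members every *fer-4* library lay above every Col-0 library, where 26.1% of all genes did so, and in 0 members every *fer-4* library lay below, where 25.1% did. Of the 28, 21 had their highest value in *fer-4* replicate 3, and without that library 0 members were called and 17 of 25 tested had a fold change above 0, with a median of 0.22. Without Col-0 replicate 3 also 0 were called. The minimum is on the mean of 6 libraries, and 3 of the 28 (ORF116, ORF110A and ORF291) had a Col-0 mean under it, so they were tested only through their *fer-4* values. ORF116 is among the 3 called and among the 6 without overlap.

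**Figure D3:**
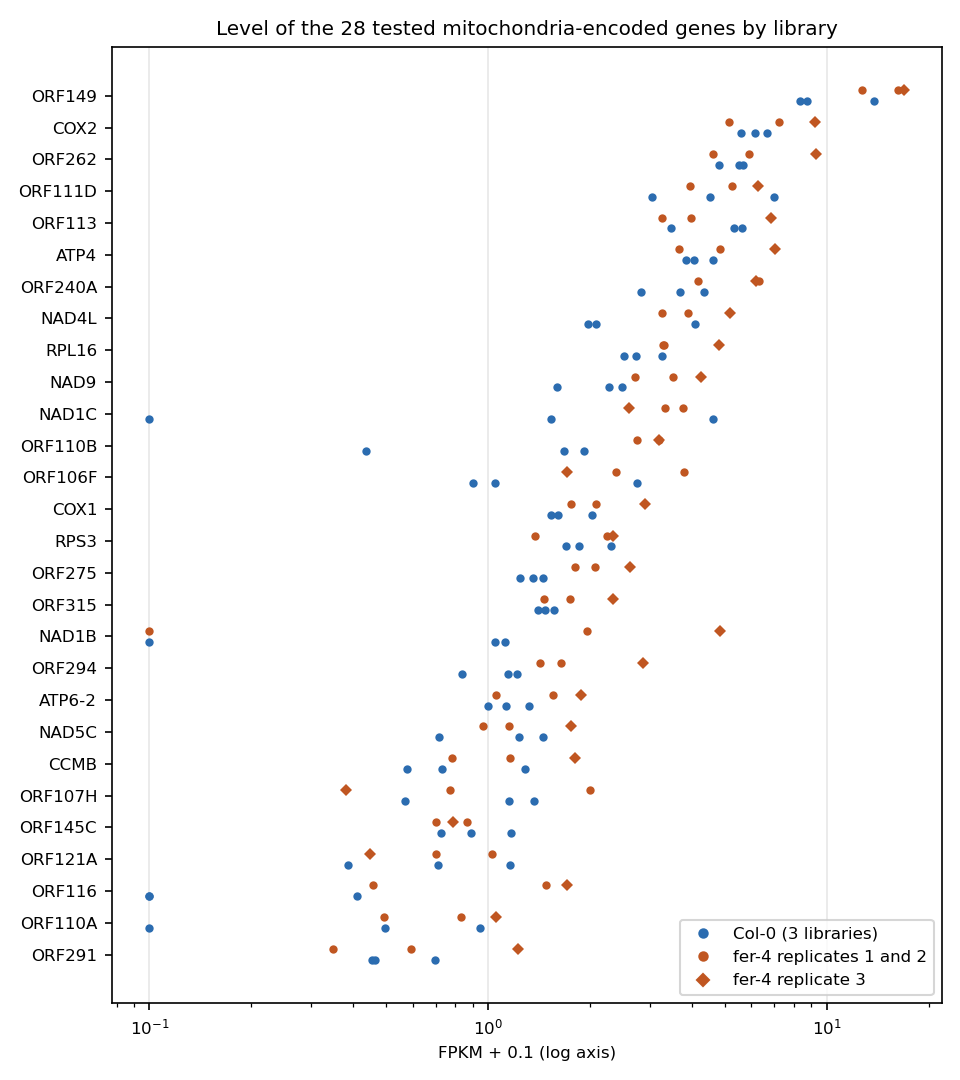
FPKM + 0.1 (x axis, log scale) of the 28 tested members in each library; each point is a library, Col-0 below and *fer-4* above the line of a gene, with *fer-4* replicate 3 as a diamond. The diamond is the highest point of 21 members, and *NAD9* and ORF275 are among the 6 whose groups do not overlap.

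*NAD9* encodes a subunit of the peripheral arm of complex I. It was 1.50, 2.39 and 2.18 FPKM in Col-0 and 2.62, 3.42 and 4.15 FPKM in *fer-4*. All *fer-4* libraries lay above all Col-0 libraries, and Col-0 replicate 1 was the lowest. The log2 fold change was 0.72 ± 0.23 (SE; limma adjusted p = 0.0414), and the adjusted p was 0.125 without *fer-4* replicate 3. Without Col-0 replicate 1, 2 or 3 or *fer-4* replicate 2 it was 0.14, 0.0511, 0.0775 and 0.0899. The call also ended with no filter on low values (limma adjusted p = 0.0545) and with nuclear genes scaled to one total (0.0643). The gene has a single exon (chrM:23663-24235 in the coordinates of the file), and its coding start is among the stretches shown.

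ORF275, of no assigned function, lies at chrM:191055-191882 in the same coordinates. It was 1.35, 1.26 and 1.14 FPKM in Col-0 and 1.70, 1.97 and 2.52 FPKM in *fer-4*. The Col-0 libraries lay close together and all *fer-4* libraries were above them. The log2 fold change was 0.67 ± 0.19 (SE; limma adjusted p = 0.0306). Leaving out *fer-4* replicate 1 kept the call, and leaving out any other library gave an adjusted p of 0.0551 to 0.101. The call also ended with nuclear genes scaled to one total (limma adjusted p = 0.0529) and with replicate number as a block (0.0595).

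ORF116 (chrM:35782-36132) had the largest fold change of the 28 and some of the lowest values. It was 0, 0.309 and 0 FPKM in Col-0 and 1.39, 0.357 and 1.61 FPKM in *fer-4*. The *fer-4* libraries were above the Col-0 ones, by a small margin in *fer-4* replicate 2. The log2 fold change was 2.72 ± 0.70 (SE; limma adjusted p = 0.0192). With 2 Col-0 libraries at 0, its size depends on the pseudocount, and it was 0.90 with a pseudocount of 1 and 4.89 with 0.01, past the threshold in both. ORF116 had a Col-0 mean of 0.103 FPKM, under the minimum, and was tested only through its *fer-4* values. The call and the pseudocount checks share that selection. Divided by the value that 1 fragment has in each library, relative to Col-0 replicate 1, the 4 values above 0 were 1, 4.2, 1 and 4.2 times the smallest of them, so the call rests on a few fragments per library if the smallest value is 1 fragment. Its adjusted p was 0.0661 without Col-0 replicate 1 and 0.0635 without Col-0 replicate 3, and without *fer-4* replicate 1 or 3 its mean fell below the minimum.

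The 3 members of highest level were ORF149, COX2 and ORF262, and none passed the test. ORF149 (chrM:190104-190553) was 13.7, 8.22 and 8.63 FPKM in Col-0 and 16.1, 12.6 and 16.9 FPKM in *fer-4*. Col-0 replicate 1 lay above *fer-4* replicate 2, so the groups overlapped, and the log2 fold change was 0.60 ± 0.20 (SE; limma adjusted p = 0.0531). It passed with nuclear genes scaled to one total (limma adjusted p = 0.0474) and with replicate number as a block (0.0197). It also passed without Col-0 replicate 1 (0.00898) and without *fer-4* replicate 2 (0.0432). Its mean of 12.7 FPKM stood at percentile 50.9 of all genes tested. *COX2*, a core subunit of complex IV that takes electrons from cytochrome c, was 6.04, 5.49 and 6.55 FPKM in Col-0 and 7.12, 5.06 and 9.16 FPKM in *fer-4*. The *fer-4* libraries held both the lowest and the highest value, and the log2 fold change was 0.20 (95% interval -0.27 to 0.66). ORF262 was 4.71, 5.55 and 5.41 FPKM in Col-0 and 5.79, 4.52 and 9.19 FPKM in *fer-4*, again with the lowest and the highest value in *fer-4*, and its log2 fold change was 0.25 (95% interval -0.29 to 0.79).

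Among the other complex I members, *NAD4L*, a membrane arm subunit, was 1.87, 3.99 and 1.98 FPKM in Col-0 and 3.80, 3.18 and 5.09 FPKM in *fer-4*. Col-0 replicate 2 lay within the *fer-4* range, and the log2 fold change was 0.66 (95% interval -0.03 to 1.35; limma adjusted p = 0.126). Without Col-0 replicate 2 the adjusted p was 0.0182. *NAD1* and *NAD5* are assembled by trans-splicing from separately transcribed pieces, and the file lists the pieces as genes of their own. The *NAD1C* piece, which shares the locus chrM:143219-147048 with *MATR*, the maturase gene inside its intron, was 0, 1.44 and 4.50 FPKM in the Col-0 libraries, and the 3 *fer-4* libraries averaged 3.13 ± 0.586 FPKM (SD, n = 3), all within the Col-0 range. The log2 fold change of 1.84 had a 95% interval of -0.85 to 4.53, and it was 0.26 without Col-0 replicate 1, the library at 0, 3.03 without Col-0 replicate 3, 0.79 with a pseudocount of 1 and 2.95 with 0.01. The *NAD1B* piece was 0.947, 0 and 1.03 FPKM in Col-0 and 1.86, 0 and 4.73 FPKM in *fer-4*, with a 0 in each group. The *NAD5C* piece was 1.14, 0.616 and 1.36 FPKM in Col-0 and 0.864, 1.05 and 1.66 FPKM in *fer-4* and overlapped throughout. The fold changes of the 3 pieces were not past the threshold (limma adjusted p = 0.26 to 0.677). *NAD5A*, *NAD7* and *MATR* had means of 0.244, 0.197 and 0.475 FPKM and were not tested.

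*COX1*, the catalytic subunit of complex IV, was 1.50, 1.43 and 1.93 FPKM in Col-0 and 1.66, 1.99 and 2.81 FPKM in *fer-4*. The groups overlapped, and the log2 fold change was 0.37 (95% interval -0.15 to 0.89). *ATP4*, listed as ORF25 and a subunit of the peripheral stalk of ATP synthase, was 3.74, 3.96 and 4.52 FPKM in Col-0 and 4.73, 3.57 and 6.94 FPKM in *fer-4*. Its *fer-4* libraries surrounded those of Col-0, and the log2 fold change was 0.26 (95% interval -0.25 to 0.78). *ATP6-2*, a copy of the proton channel subunit, was 0.902 to 1.22 FPKM in Col-0 and 0.957 to 1.78 FPKM in *fer-4*. *ATP9* and *ATP1*, the ring subunit and a head subunit, had means of 0.465 and 0.158 FPKM and were not tested.

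*RPL16* and *RPS3*, proteins of the large and the small mitochondrial ribosomal subunit, share the locus chrM:25076-28733 and their reading frames overlap, so fragments may be divided between them. *RPL16* was 2.43, 2.64 and 3.17 FPKM in Col-0 and 3.21, 3.19 and 4.70 FPKM in *fer-4*. The groups did not overlap, by a narrow margin, and the log2 fold change was 0.40 (95% interval -0.03 to 0.84; limma adjusted p = 0.139). *RPS3* was 1.60, 1.76 and 2.203 FPKM in Col-0 and 1.27, 2.15 and 2.24 FPKM in *fer-4*, with a mean of 1.86 against 1.89 FPKM and a log2 fold change with a 95% interval of -0.56 to 0.56. *CCMB*, a transporter subunit of cytochrome c maturation, was 0.631, 0.476 and 1.19 FPKM in Col-0 and 1.06, 0.683 and 1.71 FPKM in *fer-4*, and the groups overlapped. *CCMFN2*, *RPL2*, *RPS12* and *MTTB* had means of 0.438, 0.495, 0.309 and 0.0884 FPKM.

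ORF110B, ORF240A and ORF294, chosen after their values were seen, lay close to the threshold. ORF110B was 1.83, 0.336 and 1.58 FPKM in Col-0 and 2.65, 3.09 and 3.10 FPKM in *fer-4*, with no overlap (log2 fold change 1.44 ± 0.50, SE; limma adjusted p = 0.0588). ORF240A was 3.59, 2.73 and 4.23 FPKM in Col-0 and 6.22, 4.07 and 6.07 FPKM in *fer-4*, with *fer-4* replicate 2 inside the Col-0 range (0.61 ± 0.21; limma adjusted p = 0.0568). ORF294 was 1.04, 0.740 and 1.12 FPKM in Col-0 and 1.32, 1.54 and 2.77 FPKM in *fer-4*, with no overlap (0.84 ± 0.30; limma adjusted p = 0.0602). ORF110B passed with a pseudocount of 1 (limma adjusted p = 0.0307) and without Col-0 replicate 1 or 2 (0.0403 and 0.0248). ORF240A passed with nuclear genes scaled to one total (0.0442) and without *fer-4* replicate 2 (0.0197), and ORF294 without *fer-4* replicate 1 (0.0351). With replicate number as a block, ORF110B, ORF240A and ORF294 all passed (limma adjusted p = 0.0359, 0.0142 and 0.0407). The other tested ORFs, ORF106F, ORF107H, ORF110A, ORF111D, ORF113, ORF121A, ORF145C, ORF291 and ORF315, overlapped between the groups, with log2 fold changes from -0.22 (ORF145C) to 1.07 (ORF110A). Of these, ORF106F passed without Col-0 replicate 1 (limma adjusted p = 0.0289). The 4 members with a fold change below 0 were ORF145C, ORF107H (-0.20), ORF113 (-0.07) and *RPS3* (-0.0043), and 0 passed the test.

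**Figure D4:**
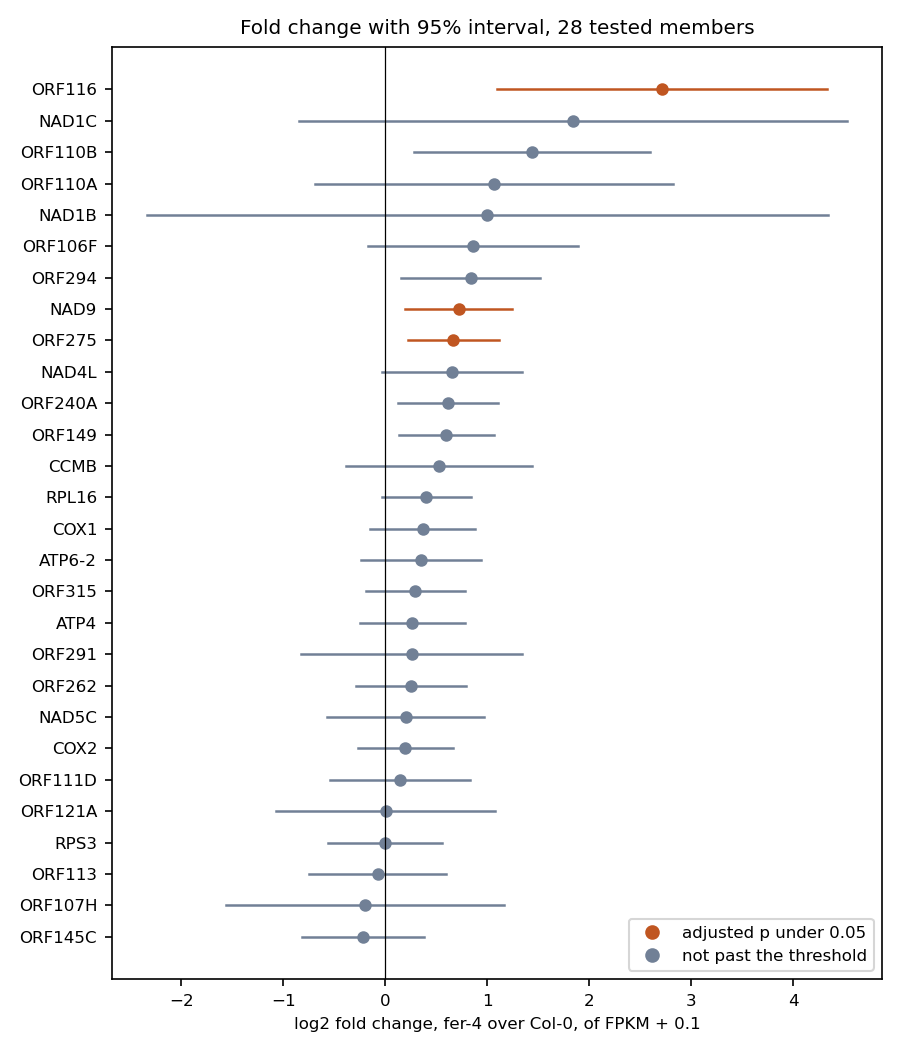
Log2 fold change of FPKM + 0.1, *fer-4* over Col-0 (x axis), of the 28 tested members with 95% intervals from limma as bars; coloured points passed an adjusted p of 0.05. The 3 coloured members are ORF116, *NAD9* and ORF275, and the 24 points right of 0 include 21 that did not pass.

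The nucleus-encoded partners of these genes were listed at far higher FPKM. The parts of RNA selection and of fragments that match several places in that gap were not tested. The 67 listed nuclear subunits of complexes I to V and cytochrome c summed to 9648, 9103 and 9454 FPKM in Col-0 and 12333, 9545 and 10892 FPKM in *fer-4*, and the groups overlapped in that Col-0 replicate 1 was above *fer-4* replicate 2 (exact permutation p = 0.2). All 67 were tested, and 12 rose (17.9%, beside 18% of all genes) and 0 fell. At an unadjusted p under 0.05, 20 were higher and 0 lower, beside 23.1% and 21.3% of all genes. Their median log2 fold change was 0.19, beside -0.01 over all genes, and 62 of 67 were above 0, beside 49% of all genes. In *fer-4* the summed level of the 67 ranked as the total FPKM of the library did, from 910619 (replicate 2) to 1058751 (replicate 1). In Col-0 it did not. By complex, 2 of 24 rose in complex I, 2 of 5 in complex II, 4 of 17 in complex III with cytochrome c, 1 of 9 in complex IV and 3 of 12 in complex V. Examples, chosen after their values were seen, were CYTC-1 (AT1G22840), a cytochrome c that carries electrons between complexes III and IV, at 253.2, 228.0 and 242.2 FPKM in Col-0 and 402.9, 285.7 and 362.2 FPKM in *fer-4*, a log2 fold change of 0.53 (limma adjusted p = 0.0183). COX6B (AT1G22450), a nuclear subunit of complex IV, was 89.2, 90.1 and 79.4 FPKM in Col-0 and 127.5, 113.2 and 106.0 FPKM in *fer-4*, a log2 fold change of 0.42 (limma adjusted p = 0.0129). The count of 12 became 4 without *fer-4* replicate 3, 25 without *fer-4* replicate 2, and 4, 4 and 3 without Col-0 replicates 1, 2 and 3. With quantile normalization 5 were higher and 3 lower, and with nuclear genes scaled to one total 22 were higher.

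Of the 21 listed nuclear genes for mitochondrial RNA factors (transcription, splicing, editing and stability), 2 rose (9.52%, beside 18% of all genes) and 0 fell (beside 16%). Their median log2 fold change was 0.01, beside -0.01 over all genes, and 11 of 21 were above 0, beside 49% of all genes. At an unadjusted p under 0.05, 4 were higher and 1 lower, beside 23.1% and 21.3% of all genes. The 2 were AT3G22330, a mitochondrial DEAD-box RNA helicase (listed as ATRH53), at 29.1, 30.9 and 31.2 FPKM in Col-0 and 34.7, 39.4 and 37.3 FPKM in *fer-4* (log2 fold change 0.29; limma adjusted p = 0.0303), and AT5G46920, a nucleus-encoded maturase, at 8.65, 8.03 and 9.31 FPKM in Col-0 and 10.4, 11.3 and 10.4 FPKM in *fer-4* (0.30; limma adjusted p = 0.0484). Neither group overlapped with the other in these 2 genes. The count was 0 when any single Col-0 replicate or *fer-4* replicate 2 or 3 was left out, 0 with quantile normalization or with nuclear genes scaled to one total, and 5 without *fer-4* replicate 1.

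**Figure D5:**
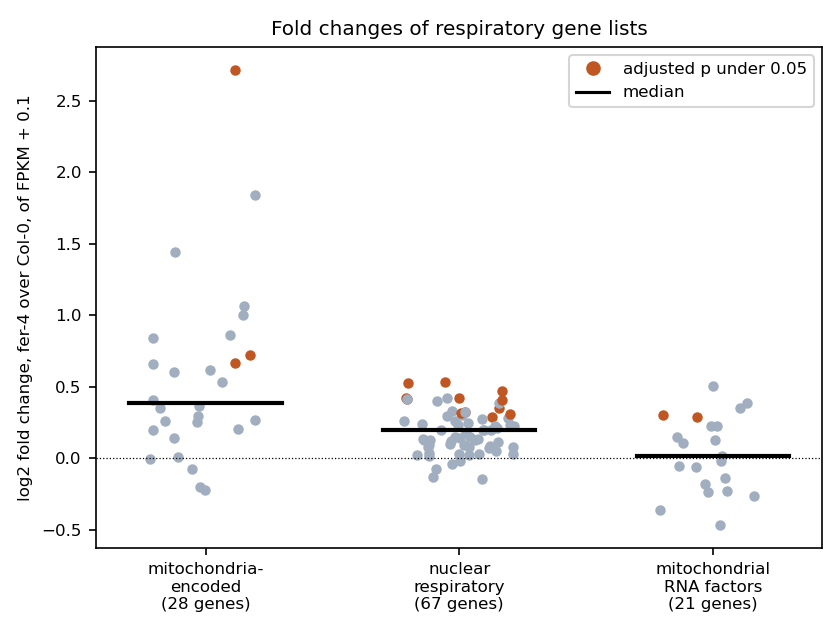
Log2 fold change of FPKM + 0.1, *fer-4* over Col-0 (y axis), of the tested mitochondria-encoded genes, the listed nuclear respiratory genes and the listed RNA factors; each point is a gene, coloured where the adjusted p was under 0.05, and lines are medians. The medians are 0.38, 0.19 and 0.01, and the mitochondria-encoded genes have the widest range.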

How the data were processed

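The 6 libraries were analysed by genotype. FPKM values deposited by the authors came, by the submitters' processing notes, from STAR 2.5 and Cufflinks 2.2.1 with TAIR10. FPKM was read from the tool and the values. Read counts were not used here, so depth is unknown; depth relative to Col-0 replicate 1, the inverse of the most frequent ratio of values under 0.3 FPKM, ranged from 0.952 to 1.09 (Col-0) and from 0.87 to 1.01 (*fer-4*). The authors' comparison columns (fold changes, p-values, q-values, group means) were not used. Genes averaging 0.5 FPKM or more were fitted as log2(FPKM + 0.1) with limma 3.58.1 in R 4.3.3 (intensity trend, 2-sided, Benjamini-Hochberg over all genes tested), a fit tested on simulated data. The pseudocount pulls fold changes of low genes toward 0. Where a library is at 0, their size depends on the pseudocount and can exceed the ratio of the group means. Members of known role could be named; per-sample values were due for the 3 of highest mean and for called members. Members, gene lists and rules were chosen with earlier results of these data known. Copies were found as exact 100-base windows and blastn alignments (at least 95% identity and 100 bases) in TAIR10.1. Alternatives changed the pseudocount, minimum, scaling, trend, replicate block and libraries.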

Additional observations from a re-analysis of the deposited data

How the results depend on the processing

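Library depth as counts is unknown and most members sit near the lowest measurable values, so small changes of single members were not detectable. Counts of members called higher were 2 to 4 with other pseudocounts, minimum levels, scalings or without the trend, but not always of the same members: with nuclear genes scaled to one total the 3 called were ORF116, ORF149 and ORF240A. Further, the sum without the members of known role that lie mainly in a nuclear alignment (an alternative chosen after seeing the data, as was the sum without ORF149) differed by 0.44 on the log2 scale in place of 0.45. That sum kept 26 of the 28 tested members, and the 84 ORFs were not checked for nuclear copies. It therefore cannot show the part of nuclear copies in the member sum.

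No pairing by replicate number was seen in the values (correlations of same-numbered deviations -0.0444, 0.0426 and -0.066, where not every library correlated best with its own number). The sources used here do not say whether same-numbered libraries were grown or prepared together, and these correlations cannot settle it. With the replicate block, 6 members were called higher in place of 3 (ORF110B, ORF149, ORF240A and ORF294 were gained and ORF275 was lost, with an adjusted p of 0.0595), 1 RNA factor higher in place of 2 and 1 lower in place of 0. The permutation p of the sum, from flipping the signs of the 3 paired differences, was 0.25. That is the smallest that 3 pairs allow, so it cannot show that pairing weakened the difference.

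Leaving out 1 library in turn gave 0 to 3 members called higher, a median member log2 fold change of 0.22 to 0.58, a summed difference of 0.29 to 0.58, 3 to 25 nuclear respiratory genes higher and 0 to 5 RNA factors higher. Nuclear respiratory genes called higher were 5 (and 3 lower) with quantile normalization and 22 with nuclear genes scaled to one total, where 12 and 0 were called in the report. RNA factors called higher were 1 with no filter on low values and 0 with quantile normalization (1 lower), with nuclear genes scaled to one total and without the trend. The median member log2 fold change was 0.27 with a pseudocount of 1. Quantile normalization moved the split of all calls to 42.2% higher.

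Log2 fold changes of several members, most of them near 0, changed sign under some settings, and none of these members passed the threshold under any setting. *RPS3* was 0.0039 with a pseudocount of 1 and 0.00037 with nuclear genes scaled to one total, ORF121A was -0.013 with a pseudocount of 1 and -0.16 with quantile normalization, and ORF291 was -0.12 with quantile normalization. Leaving out 1 library in turn gave -0.10 to 0.41 for *NAD5C*, -0.14 to 0.24 for *RPS3*, -0.41 to 0.39 for ORF121A, -0.0018 to 0.42 for *COX2*, -0.025 to 0.48 for ORF262, -0.15 to 2.65 for *NAD1B*, -0.38 to 0.15 for ORF113, -0.83 to 0.37 for ORF107H and -0.15 to 0.45 for ORF111D. That of *NAD1B* was not near 0 (1.00) but had a 0 in each group. The causes were not tested.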
